A study of Mus musculus with 2 samples.

Results

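The adenylyl cyclases and the protein kinase A axis form the signalling route described here, in RNA from mouse kidney preglomerular arterioles. Its 10 genes were Adcy3, Adcy4, Adcy5, Adcy6, Adcy7 and Adcy9, which encode membrane adenylyl cyclases, Gnas for the stimulatory G protein alpha subunit, Prkaca for a catalytic subunit of protein kinase A, and Creb1 and Crem for transcription factors that this kinase phosphorylates. They were chosen by name, as the text before the first colon of the gene name in the authors' deposited table, and are 10 of 22270 genes that could be named. Each of the 10 had 1 probe set, so no choice between probe sets was needed.

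The study compared arterioles of RBP-J conditional knockout mice (RBP-J cKO) with those of wild type mice, on 1 Affymetrix array per group. The cKO array held pooled RNA of 4 males that were RBP-J flox/flox, R26R ECFP and Ren1d+/cre. The wild type array held pooled RNA of 3 animals, 2 males and 1 female, that were RBP-J flox/flox, R26R ECFP and Ren1d+/+. All animals were 3 months old and of a mixed 129Sv and C57Bl6 background, so both groups carried the floxed gene and the reporter allele, and cre at 1 Ren1d allele set them apart. Cre under the renin gene deletes RBP-J, the DNA-binding partner of Notch receptors, in renin cells and their descendants and not in the whole vessel. The kidneys were perfused with iron oxide, the cortex was digested with collagenase, and vessels were collected with a magnet. With 1 pooled array in each group, a difference had no replicate to be set against and no test of the genotype was possible. The sex of the animals cannot be told apart from the genotype, and the spread between animals was not measured. The arrays had median RMA values of 7.21 in cKO and 7.25 in wild type and correlated at 0.987 over 34760 probe sets. Rbpj, the targeted gene, read 9.02 in cKO and 9.0 in wild type on the brighter of its 2 probe sets. It is not stated whether its probes fall inside the deleted stretch, so this value cannot check the labels.

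Cyclic AMP is the second messenger that drives renin release and renin transcription in juxtaglomerular cells. A hormone or neurotransmitter receptor activates the G protein alpha subunit encoded by Gnas, this activates an adenylyl cyclase, and the cyclic AMP formed frees the catalytic subunits of protein kinase A, which phosphorylate CREB and CREM at genes with cyclic AMP response elements. The cyclase isoforms differ in control: those encoded by Adcy5 and Adcy6 are inhibited by calcium and are known from juxtaglomerular cells, where renin release falls as calcium rises.

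Levels are the deposited RMA values on a log2 scale, and a difference is cKO minus wild type on that scale. The floor was set at 7.56, the median RMA value of the named probe sets, and a gene had to reach it on at least 1 array. This held for 11570 genes and for 9 of the 10. Crem, at 7.41 in cKO and 7.37 in wild type, was the one below it. Levels of different probe sets are not compared with each other, since each probe set has its own response. The summed linear levels of the marker lists are given as a description. They weigh bright probe sets most and take in genes below the floor. The 10 genes and all lists, those of cell type markers included, were chosen with earlier results of these data known. Counts by direction within a list are therefore a description and not independent evidence.

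Most of the 10 genes differed little between the pools, and the cyclase isoforms did not all lie on one side. Adcy4 was 1.36-fold lower in cKO arterioles and Adcy7 was 1.34-fold higher. With RMA as deposited these were the genes that passed a 1.2-fold difference, 1 in each direction. Centring the differences on their median or on a loess trend put 3 genes past it on the lower side, since Adcy6 and Creb1, just short of it otherwise, then joined Adcy4. Over all genes above the floor 18.6% were higher by that much and 11% lower, so the counts among the 10 are not set apart from the rest of the array. The dChip values put the same pair past 1.2-fold, against 19.5% of genes higher and 10.6% lower. None of the 10 reached 1.5-fold, which 4.11% of genes passed upward and 1.61% downward, or 2-fold, which 0.856% passed upward and 0.199% downward. Of the 9 above the floor 3 were higher and 6 lower, with a median difference of -0.07. With a floor at the 75th percentile, 8.97, the 4 genes left, Adcy4, Adcy6, Gnas and Creb1, had a median of -0.25. Over all genes above the floor 53.9% were higher and 46% lower, with a median of 0.02. The median size of the difference, without its sign, was 0.12 for the 9 and 0.16 for all genes above the floor.

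**Figure D1:**
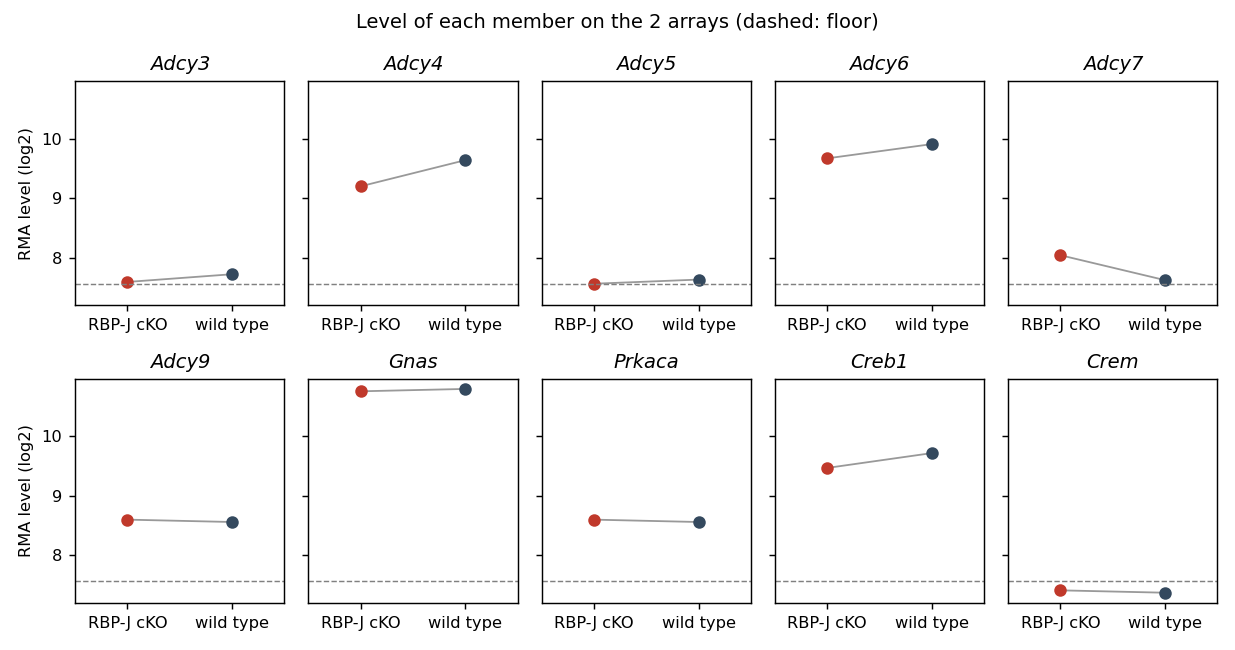
RMA level (log2, vertical axis) of each of the 10 genes on the RBP-J cKO array (red, left) and the wild type array (dark blue, right), 1 pooled array each, with the floor of 7.56 dashed. Adcy4, Adcy6 and Creb1 slope down toward cKO, Adcy7 slopes up toward it, and Crem lies below the floor on both arrays.

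Among the cyclases Adcy4 differed most. Its level was 9.20 in cKO arterioles and 9.64 in wild type arterioles (probe set 10420171), a difference of -0.44, and 3.89% of the genes above the floor were at least this much lower. The authors' deposited table, computed with dChip from the same arrays, gave it an intensity of 606 in cKO and 817 in wild type, with a signed fold of -1.35 (lower bound -1.28, upper bound -1.42). A minus sign in that table means that wild type was higher, and the sources used here do not give the confidence level of the bounds. Both processings of the arrays thus gave Adcy4 nearly the same difference, -0.44 with RMA and -0.43 with dChip. Adcy4 encodes a calcium-insensitive cyclase of the same subfamily as Adcy7 and is known from endothelial cells. Endothelial markers were lower with it: of 10 listed genes, all above the floor, 9 were lower, with a median difference of -0.62 and a summed linear RMA level of 19646 in cKO and 27709 in wild type. The largest of these differences were -0.76 for Egfl7, a secreted protein of the vessel wall, and -0.72 each for Ehd3, a membrane trafficking gene, and Kdr, a receptor of vascular endothelial growth factor. Cldn5 was the listed gene that was not lower, at 0.04 with RMA and 0.06 with dChip. Podocyte, pericyte and mesangial, and renin cell markers were lower too, with medians of -0.44, -0.51 and -0.54. The part of the endothelial cells or of these other cells in the Adcy4 value was not tested. In RNA of whole vessels fewer cells of a type and less RNA per cell cannot be told apart, here and for every gene below.

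The promoter window of Adcy4 is shown because RBP-J, the deleted factor, binds the letters TGGGAA, and this window of 250 bases before and 50 after the transcript start holds them once, 85 bases before the start (RefSeq, GRCm38.p6, chr14:55784023-55784322, minus strand). Capitals mark these letters.
Adcy4: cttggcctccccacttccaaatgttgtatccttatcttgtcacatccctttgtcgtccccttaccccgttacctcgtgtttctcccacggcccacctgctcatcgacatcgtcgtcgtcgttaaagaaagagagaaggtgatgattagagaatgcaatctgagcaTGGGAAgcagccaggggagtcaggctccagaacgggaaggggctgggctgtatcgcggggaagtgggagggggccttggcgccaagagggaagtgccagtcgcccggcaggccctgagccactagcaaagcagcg
The letters were looked for on both strands. They occurred in 25.6% of all 32851 such windows in the RefSeq table, so their presence here is a description and not a binding site.

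Adcy7 went the other way. Its level was 8.04 in cKO arterioles and 7.62 in wild type arterioles (probe set 10573747), a difference of 0.42, and 8.78% of the genes above the floor were at least this much higher. Both arrays lay above the floor. The authors' deposited table gave it 360 in cKO and 284 in wild type and a signed fold of 1.27, bounded at 1.12 and 1.44, the widest span of the 10 genes. Adcy7 is the cyclase known from blood and immune cells. Macrophage markers were higher with it, in 8 of 8 cases, with a median difference of 1.18 and a summed linear RMA level of 7561 in cKO and 3426 in wild type. Lyz2, which encodes lysozyme, differed by 2.13. Adgre1, which encodes a surface receptor of macrophages, read 8.11 in cKO and 6.62 in wild type, so it reached the floor on the cKO array alone, as did Ctss. The 6 macrophage markers at the floor on both arrays were all higher, with a median of 1.05. Lymphocyte and neutrophil markers had 3 of 6 genes above the floor, Cd3e, Cd79b and Ighm, at 0.18, 0.14 and 0.73, of which Cd79b and Ighm reached it on the cKO array alone, and a summed linear level of 853 in cKO and 681 in wild type. The neutrophil gene S100a8, below the floor, was at 0.47 with RMA and -0.08 with dChip. Their part in the Adcy7 value was not tested.

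Adcy7 has 3 start windows in the RefSeq table, and the sources used here do not say which of them the probe set reads. A pair of them are shown because each holds letters of a factor of this study. The first holds the core letters of a cyclic AMP response element, TGACG, read on the opposite strand as CGTCA and beginning 28 bases before the start (GRCm38.p6, chr8:88282742-88283041, plus strand). The second holds TGGGAA, read on the opposite strand as TTCCCA and beginning at base 14 after the start (chr8:88288816-88289115, plus strand). Capitals mark these letters.
Adcy7, first window: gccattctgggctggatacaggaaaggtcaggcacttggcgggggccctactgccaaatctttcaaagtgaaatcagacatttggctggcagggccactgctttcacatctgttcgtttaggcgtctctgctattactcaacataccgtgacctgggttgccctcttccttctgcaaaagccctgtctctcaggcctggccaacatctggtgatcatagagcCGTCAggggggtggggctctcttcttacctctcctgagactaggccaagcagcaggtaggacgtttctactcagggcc
Adcy7, second window: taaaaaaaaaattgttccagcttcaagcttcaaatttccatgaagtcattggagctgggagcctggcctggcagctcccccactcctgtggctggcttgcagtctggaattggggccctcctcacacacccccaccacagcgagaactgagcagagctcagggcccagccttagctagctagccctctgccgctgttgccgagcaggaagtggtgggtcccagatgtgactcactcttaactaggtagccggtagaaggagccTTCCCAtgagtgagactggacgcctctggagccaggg
TGACG occurred in 20.8% of all windows. The full response element TGACGTCA, which contains TGACG, occurred in 1.79% of all windows and in 0 of the 15 windows of the genes described here.

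A ratio of isoforms within each array is free of a constant shift between arrays, but not of a normalization that depends on intensity. The pair with the highest and the lowest difference of the 10 was taken after their values were seen, so its ratio is a description. Relative to Adcy4, Adcy7 was 1.81-fold higher in cKO than in wild type, or 0.86 on the log2 scale, with RMA. With the dChip values the same ratio was 1.71-fold, or 0.77. Relative to Adcy6 the ratio for Adcy7 was 1.59-fold with RMA and 1.47-fold with dChip.

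Adcy6, the calcium-inhibited isoform of juxtaglomerular cells, read 9.67 in cKO arterioles and 9.91 in wild type arterioles (probe set 10432190). The difference of -0.25 was 1.19-fold, just short of the 1.2-fold threshold, and 12.1% of genes above the floor were at least this much lower. The authors' deposited table gave it 1321 in cKO and 1531 in wild type, a signed fold of -1.16 bounded at -1.13 and -1.19. Adcy5, the other calcium-inhibited isoform, read 7.56 in cKO and 7.63 in wild type (probe set 10435388). Its difference of -0.07 was one that 34.2% of genes reached or passed downward, and it reached the floor on the wild type array alone. Relative to Adcy6, Adcy5 was 1.13-fold higher in cKO than in wild type with RMA and 1.09-fold with dChip.

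Renin cell markers were lower beside Adcy6. Of 4 listed genes 3 were above the floor and all 3 were lower, Ren1, the renin gene itself, at -0.58, Gjc1 at -0.54 and Gja5 at -0.33, the last pair encoding gap junction proteins. Their median was -0.54 and their summed linear level, over the 4, was 2342 in cKO and 3255 in wild type. Akr1b7, the listed gene below the floor, enters this sum and parted between processings, at -0.13 with RMA and 0.17 with dChip. By design the pools also differ at the renin locus, which holds cre in the cKO pool only. Ren1 is therefore not a marker independent of the genotype, and it enters this sum. The part of the altered locus in the Ren1 value was not tested. Smooth muscle markers were closer to equal, with 2 of 6 higher and 4 lower, a median of -0.04 and summed linear levels of 6180 in cKO and 6131 in wild type. Tagln, for transgelin, differed by 0.34 and Smtn, for smoothelin, by -0.28. Which of these cells the Adcy6 signal came from was not tested.

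The other cyclases were closer to equal. Adcy3, the isoform best known from olfactory neurons, read 7.59 in cKO and 7.72 in wild type (probe set 10394258), a difference of -0.12 that 25.1% of genes reached or passed downward. Adcy9, an isoform that forskolin activates poorly, read 8.60 in cKO and 8.56 in wild type (probe set 10437364). Its difference of 0.04 turned to -0.03 with the dChip values, and the bounds of its signed fold in the authors' deposited table, -0.98 and -1.07, lie on both sides of equality.

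Outside the 10 genes Adcy1, a calmodulin-stimulated isoform, was above the floor at 8.92 in cKO and 9.15 in wild type, a difference of -0.24 under both processings. Over the whole cyclase family 7 of 10 isoforms were above the floor, with a median difference of -0.12, or -0.25 with the stricter floor. Of these Adcy7 and Adcy9, 2 genes, were higher and 5 were lower. Adcy2, Adcy8 and Adcy10, singled out after their values were seen, were below the floor on both arrays.

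**Figure D2:**
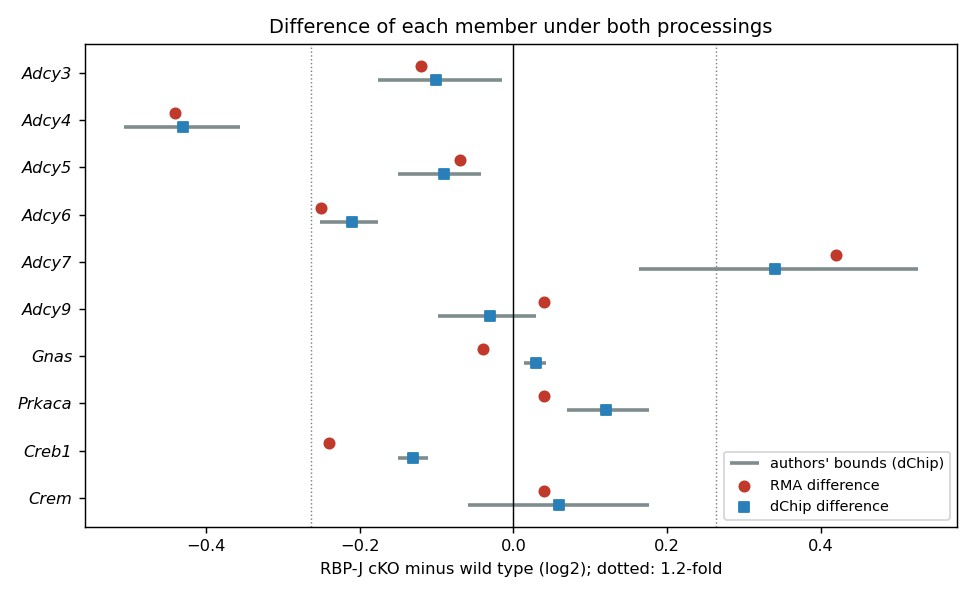
Difference between RBP-J cKO and wild type (log2, horizontal axis) of each of the 10 genes with RMA (red circles) and with dChip (blue squares), with the authors' bounds of the dChip fold as grey lines and the 1.2-fold threshold dotted. Adcy4 and Adcy7 lie past the dotted lines on opposite sides under both processings, and Adcy9 and Gnas change side of 0 between them.

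The stimulatory G protein gene Gnas was close to equal in both pools. It read 10.76 in cKO and 10.80 in wild type (probe set 10479112), a difference of -0.04. With the dChip values the difference was 0.03, and the authors' deposited table gave 3664 in cKO and 3583 in wild type with a signed fold of 1.02 bounded at 1.01 and 1.03. The sign of the Gnas difference therefore depends on the processing, although the authors' bounds are the narrowest of the 10. Gnas is an imprinted locus with several promoters and transcripts, and 1 probe set cannot separate them. Among its 4 start windows from RefSeq, 1 held the longer RBP-J letters GTGGGAA, which contain TGGGAA and occurred in 6.38% of all windows. The window is shown for that reason (GRCm38.p6, chr2:174329756-174330055, plus strand), with those letters in capitals as TTCCCAC on the opposite strand, beginning 11 bases before the start, and with CGTCA, the response element's core letters on the opposite strand, 216 bases before it.
Gnas: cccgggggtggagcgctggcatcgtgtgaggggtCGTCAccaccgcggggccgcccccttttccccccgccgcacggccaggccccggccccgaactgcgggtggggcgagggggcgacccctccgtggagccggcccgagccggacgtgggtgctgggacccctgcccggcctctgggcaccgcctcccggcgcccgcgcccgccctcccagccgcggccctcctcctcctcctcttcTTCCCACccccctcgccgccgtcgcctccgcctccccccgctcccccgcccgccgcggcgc
Of the 15 windows found, from 8 of the 10 genes, 5 windows of 5 genes held TGGGAA and 6 windows of 4 genes held TGACG. Over all windows 25.6% held TGGGAA and 20.8% held TGACG. Overlapping Gnas windows share 1 TGACG, so the 6 windows do not hold separate sites throughout. The 5 genes with TGGGAA were Adcy3, Adcy4, Adcy7, Gnas and Prkaca, which differed by -0.12, -0.44, 0.42, -0.04 and 0.04. A link of these letters to the differences was not tested.

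Among the other alpha subunits that act on adenylyl cyclase 5 of 7, Gnas included, were above the floor, 2 higher and 3 lower, with a median of -0.04 that turned to 0.03 with dChip. Those of the inhibitory class differed by 0.14 for Gnai1, -0.11 for Gnai2 and 0.03 for Gnai3, and Gnao1, of the related Go class, by -0.12. No alpha subunit gene above the floor passed 1.2-fold with RMA.

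Prkaca, the catalytic subunit gene of protein kinase A, read 8.60 in cKO and 8.56 in wild type (probe set 10573266), a difference of 0.04. It was 0.12 with dChip, where the authors' deposited table gave 647 in cKO and 596 in wild type, a signed fold of 1.09 bounded at 1.05 and 1.13. The other subunits were close to equal too. Of 6 subunit genes 5 were above the floor, 3 higher and 2 lower, with a median of 0.01. The second catalytic gene Prkacb differed by 0.04, and the regulatory subunit genes Prkar1a, Prkar1b and Prkar2a by -0.14, 0.01 and -0.04. The inhibitor peptide genes Pkia and Pkig differed by -0.05 and 0.14. The A-kinase anchoring proteins, which hold the kinase at sites in the cell, had 8 of 12 measured genes above the floor, 3 higher and 5 lower, with a median of -0.14. Akap12, a scaffold at the cell membrane, was close to equal at 0.05. Akap1, which anchors the kinase at mitochondria, was at 0.23 and Akap9, at the Golgi and centrosome, at 0.20, while Akap7 was at -0.23 and Akap8, a nuclear anchor, at -0.20. With RMA no subunit, inhibitor or anchor gene above the floor passed 1.2-fold, and with dChip Akap1 did, at 0.29.

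Creb1, whose product binds cyclic AMP response elements, read 9.47 in cKO and 9.72 in wild type (probe set 10346943). The difference of -0.24, or 1.18-fold, fell short of the threshold, and 12.2% of genes above the floor were at least this much lower. With dChip it was -0.13, with intensities of 2952 in cKO and 3232 in wild type, and the signed fold in the authors' deposited table was -1.09 with bounds of -1.08 and -1.11. The size of the Creb1 difference moved more between processings than that of any other of the 10. Crem, whose products include both activators and the cyclic AMP-induced repressor ICER, differed by 0.04 below the floor (probe set 10457205). Its signed fold in the authors' deposited table was 1.04 with bounds of 0.96 and 1.13, on both sides of equality.

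The list of the CREB family, its coactivators and the cyclase-associated proteins was close to equal. Of its 10 genes, Creb1 and Crem included, 9 were above the floor, 2 higher and 7 lower, with a median of -0.04 and none past 1.2-fold, while 46% of all genes above the floor were lower. Atf1, the closest relative of Creb1 and Crem, differed by 0.17, the cyclase-associated protein gene Cap1 by 0.03, the coactivator gene Crtc1 by -0.15 and the related Cap2 by -0.20.

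Cyclic AMP also acts without protein kinase A. Rapgef3 and Rapgef4, which encode the exchange factors EPAC1 and EPAC2 that cyclic AMP opens directly, were lower by 1.39-fold and 1.41-fold. Rapgef3 read 9.93 in cKO and 10.40 in wild type, a difference of -0.48 that was -0.30 with dChip. Rapgef4 read 9.35 in cKO and 9.84 in wild type, a difference of -0.49 that was -0.47 with dChip. They were the 2 genes above the floor of 5 listed effectors, and both passed 1.2-fold downward, as 11% of all genes above the floor did. Popdc2, Popdc3 and Bves, the other listed effectors, were below the floor at -0.18, -0.14 and -0.20, and the median over all 5 was -0.20. Endothelial, podocyte, pericyte and mesangial, and renin cell markers were on the lower side too, with medians of -0.62, -0.44, -0.51 and -0.54. The part of these cells in the EPAC values was not tested.

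Genes that CREB is known to activate mostly lay on the higher side, while Creb1 lay on the lower. Of 11 target genes above the floor 9 were higher and 2 lower, with a median of 0.25, while 53.9% of all genes above the floor were higher. Among the 11, 5 passed 1.2-fold upward and 1 downward, against 18.6% and 11% of all genes. Nr4a3, a nuclear receptor gene, differed by 0.76 and was 8.12 in cKO and 7.36 in wild type, so it was above the floor through the cKO array alone. Over the 10 target genes at the floor on both arrays, which leave out Nr4a3, 8 were higher and 2 lower, with a median of 0.20. Gem, for a small GTPase, differed by 0.62 and Ppargc1a, for a coactivator of mitochondrial genes, by 0.40. The immediate early genes Fos and Nr4a1 differed by 0.37 and 0.36. The lower ones were the clock gene Per1 at -0.44 and Pck1, a gene of gluconeogenesis, at -0.19. Several of these genes also respond to serum, stress and tissue handling, and the list is small.

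Over the whole pathway without the target genes 38 genes were above the floor, 13 higher and 25 lower, with a median of -0.06. Of these 1 passed 1.2-fold upward, Adcy7, and 3 downward, Adcy4, Rapgef3 and Rapgef4, beside 18.6% and 11% of all genes above the floor. Without the 10 genes the remaining 29 had a median of -0.05, with 10 higher and 19 lower.

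**Figure D3:**
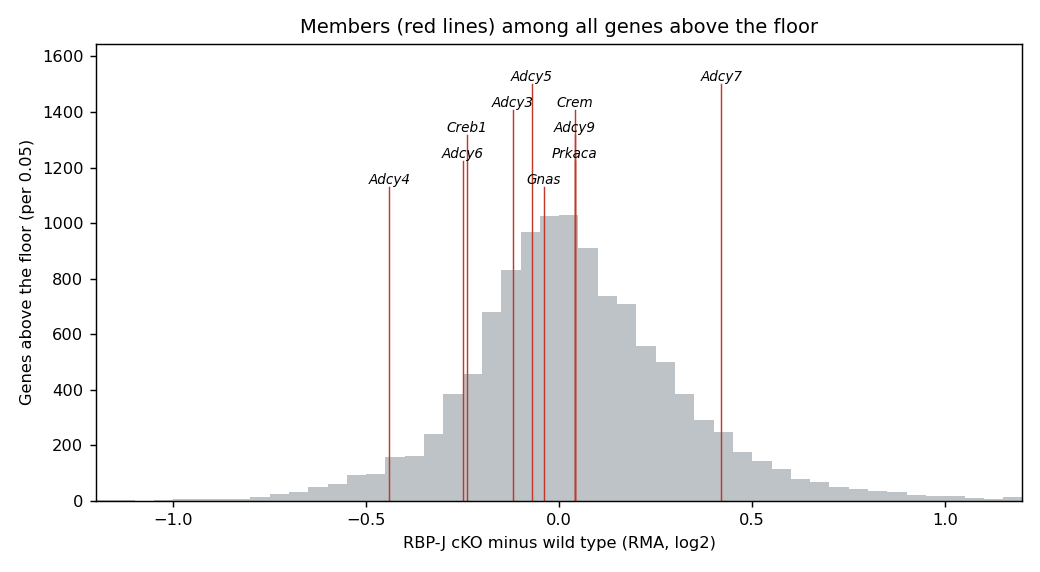
Number of genes above the floor (vertical axis, per 0.05) by difference between RBP-J cKO and wild type (RMA, log2, horizontal axis), with a red line at each of the 10 genes. The plot leaves out 66 genes beyond 1.2 on either side, and Adcy4 and Adcy7 stand at the flanks while the other 8 lie nearer the centre.

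Markers of the remaining cell types differed between the pools as well. All 6 podocyte markers were lower, at a median of -0.44, with summed linear levels of 15350 in cKO and 19201 in wild type, among them Nphs1 at -0.63 and Synpo at -0.57. Pericyte and mesangial markers were lower in 5 of 5, with a median of -0.51 and sums of 6431 in cKO and 8679 in wild type, led by Gata3 at -0.79 and Ptn at -0.75. Most tubule markers were higher. Those of proximal tubule were higher in 6 of 6, with a median of 0.22 and sums of 24648 in cKO and 21176 in wild type, led by Slc22a6 at 0.52 and Cubn at 0.32. Those of thick limb and distal tubule were higher in 5 of 6, with a median of 0.54 and sums of 18267 in cKO and 15805 in wild type, led by Pvalb at 0.94 and Trpm6 at 0.77. Slc12a1 of this list was lower, at -0.09. Those of collecting duct were higher in 5 of 6, with a median of 0.71 and sums of 3757 in cKO and 2502 in wild type, led by Atp6v0d2 at 1.21 and Atp6v1g3 at 1.11. Aqp2 of this list was lower, at -0.18. Cyclases and protein kinase A are expressed in all of these cells, and the part of the cell mixture in the values of the 10 genes was not tested. Smooth muscle, endothelial, pericyte and renin markers of the labelled tissue were above the floor in both pools, except Akr1b7 of the renin list, and so were podocyte and tubule markers.

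**Figure D4:**
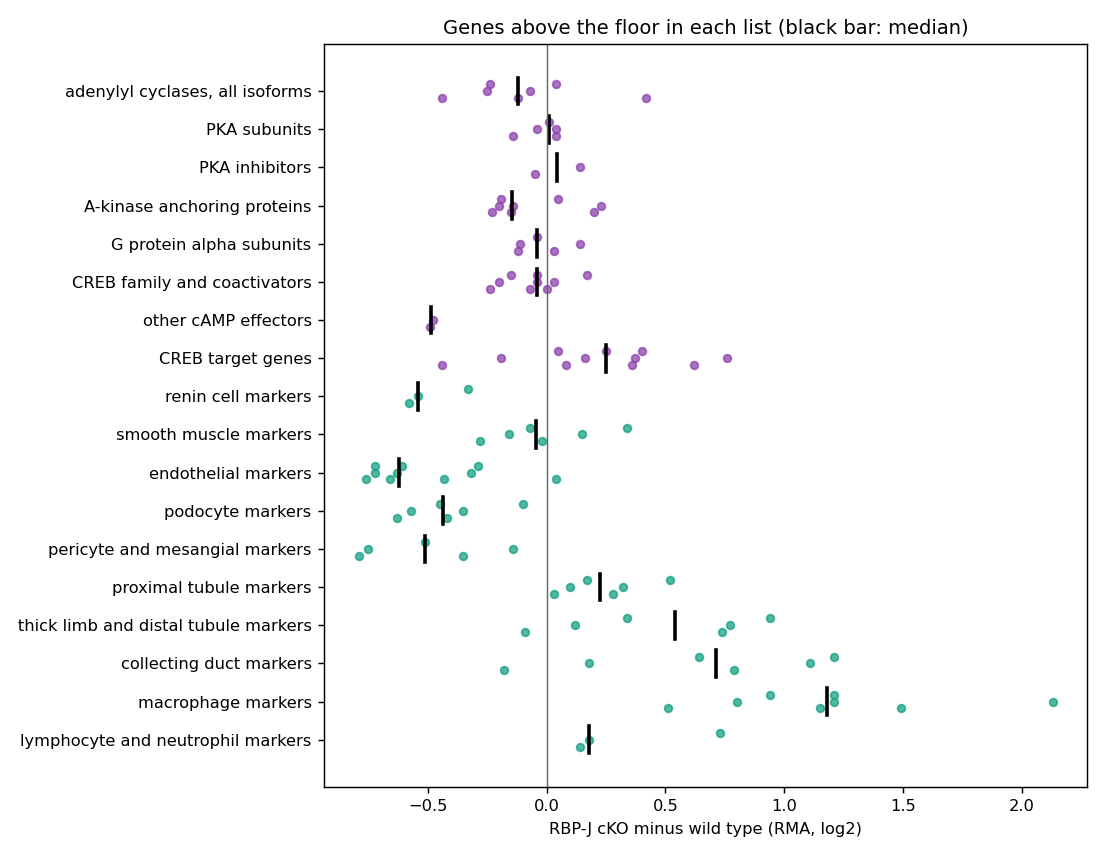
Difference between RBP-J cKO and wild type (RMA, log2, horizontal axis) of each gene above the floor, by pathway list (purple) and cell type marker list (green), with the median of each list as a black bar. The medians of the subunit, inhibitor, G protein and CREB family lists lie close to 0, and the macrophage markers lie highest. The anchor genes spread from -0.23 to 0.23, with a median of -0.14. The EPAC genes lie on the lower side, as do the endothelial, podocyte, pericyte and mesangial, and renin cell markers.

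The authors' own processing left most of the 10 on one side of equality, as it did for most genes. The bounds of the fold in the authors' deposited table were on 1 side of equality for 8 of the 9 genes above the floor, above it for Adcy7, Gnas and Prkaca and below it for Adcy3, Adcy4, Adcy5, Adcy6 and Creb1. The same held for 78.3% of all genes above the floor, so these bounds, which come from 1 pooled array per group and leave out the spread between animals, do not set the 10 apart. The RMA difference lay outside these bounds for 4 of the 10, Adcy9, Gnas, Prkaca and Creb1. The authors' comparison filter marked 326 probe sets and 0 of the 10, while 1.06% of the genes above the floor carried the mark.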

How the data were processed

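Each of the 2 arrays measured 1 pool of arteriole RNA. The deposited log2 values are RMA values; the submitters' processing notes name RMA, R 2.15.0 and limma 3.12.1 without their roles. Linear intensity values and a signed fold score with bounds stand in another table, which the authors computed with dChip, per the file headers. Neither the dChip version nor a genome build or annotation is stated there. Because RMA equalises the distributions of the arrays, a change common to most genes is removed.

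Probe sets were named through the dChip table and a RefSeq gene table (GRCm38.p6): 18664 by accession, 2420 by symbol, 1957 by synonym, 2134 by the file's own symbol and 10337 not at all. Of 1323 genes with several probe sets the brightest was used. Differences of RMA values were counted past 1.2-fold, 1.5-fold and 2-fold, with no test, since each group has 1 array and their number limits the precision. The counting step was checked on simulated data with planted folds and no noise, which does not test the counts on these arrays. Named were the 10 genes, all above the floor of short lists or the 4 largest differences of longer ones, and 2 per marker list. Gja5, Cd3e, Cd79b, Akap12, Cap1, Fos, Nr4a1, Pck1, Akr1b7, Ctss, Popdc2, Popdc3, Bves, Cldn5, Slc12a1, Aqp2 and one of Kdr and Ehd3 fall outside this and were named after their values were seen. The members and lists were chosen with earlier results of these data known. Promoter sequences come from RefSeq. Python 3.11.15, pandas 2.3.3, NumPy 2.4.6, statsmodels 0.14.6 and matplotlib 3.10.9 were used.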

Additional observations from a re-analysis of the deposited data

How the results depend on the processing

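The alternatives were the dChip values, centring on the median or on a loess trend, the mean over probe sets, dropping the floor, raising it to the 75th percentile (8.97) and other fold thresholds. A floor on both arrays, chosen after seeing the data, left out Adcy5 of the 10 and Nr4a3 of the targets. Of the alternative values 109 stayed close, for single differences and list medians within 0.0982, the standard deviation across genes of RMA minus dChip differences, and for counts within 1.5 times; 12 moved further, and no difference past 1.2-fold changed sign. Part of this tally was fixed in advance. The mean over probe sets could not change the 10 genes, which had 1 probe set each. Centring on the median shifts every gene by the same 0.02, which is below that limit. The tally is therefore a description and not a measure of robustness. With dChip the Creb1 difference was -0.13 and the effector median -0.38. The effector median was -0.20 with no floor, which adds 3 dim genes. The stricter floor left 4 of the 10 genes, with a median of -0.25, and gave the cyclase family -0.25 as well. Centring on the median and centring on a loess trend each put 3 genes at least 1.2-fold lower, against 1, because Adcy6 (-0.27 and -0.29) and Creb1 (-0.27 and -0.28) passed the threshold beside Adcy4. At 1.5-fold and at 2-fold 0 genes were higher and 0 lower. Small values changed sign: Adcy9 and Gnas with dChip, the G protein median with dChip (0.03), and the subunit median with either centring (-0.01) and the stricter floor (-0.05). No paired analysis was possible because each group has 1 pooled array, and no array could be left out for the same reason.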

Other observations

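Below the floor, where a probe set resolves little, the processings parted for several genes of the pathway, chosen after their values were seen. Pkib, which encodes an inhibitor peptide of protein kinase A, read 6.38 in cKO and 6.09 in wild type, a difference of 0.29 with RMA and -0.01 with dChip. Adcy10, the soluble cyclase that bicarbonate activates, read 4.71 in cKO and 4.54 in wild type, a difference of 0.17 with RMA and -0.10 with dChip. Adcy8 differed by 0.03 with RMA and -0.16 with dChip, and the regulatory subunit gene Prkar2b by 0.01 and -0.15. Gnal, a close relative of Gnas, differed by 0.17 with RMA and 0.36 with dChip. Over genes above the floor 89.8% had the same sign under both processings.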
